A study of Pistacia vera with 121 samples.

Results

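The genes described here are those of the developing pistachio shell whose highest level fell late in the sampled season, from 1759 to 2139 growing degree days (°C), the heat accumulated over the season. They were chosen on measured values, as CPM (counts scaled to a common library total) averaged over the libraries of 1 tissue at 1 sampling point. A gene was taken if its highest shell mean lay at 1 of those late points, reached at least 10 CPM and was more than 3 times every mean of hull and of kernel. Of 37063 gene identifiers, 57 met the rule and all of them are members.

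Fruits of the cultivar Kerman were separated into hull (the fleshy outer fruit wall), shell (the endocarp, which turns hard) and kernel (the seed inside it), and total RNA of each was sequenced. The labels name no treatment, tree or orchard, so a group is a tissue at a number of degree days. In all 107 libraries were used: 44 of hull at 15 points from 865 to 2564, 34 of shell at 11 points from 865 to 2139, and 29 of kernel at 10 points from 1223 to 2377. Groups held 2 to 4 libraries, and the 14 libraries that the rule leaves out are described after the results. Nothing in the labels says whether libraries of a group came from separate trees, so the p-values measure the spread between these libraries, which may be partly technical.

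The pistachio shell is a stone-like fruit layer whose cells deposit thick, lignified walls. It reaches its full size before the kernel grows to fill it, and late in the season many shells split along the suture while the hull softens. The identifiers carry no names, and 0 of the 38315 in the count table matched RefSeq's genes for the assembly PisVer_v2, so the roles of the members are not given here and the tissue labels could not be checked against known marker genes.

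Kernel libraries were the shallowest. Shell libraries held 7654046 to 16586003 counts on numbered genes, and kernel libraries 850623 to 12312036. Levels well under 1 CPM rest on a handful of reads. In bulk tissue, fewer cells of a kind and less RNA per cell cannot be told apart.

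The 57 members were divided into a pair of patterns by their 3 highest shell libraries, as the heatmap of all members shows. For 26 of them the 3 highest shell libraries were S29 and S31, both at 1759, and S39, at 2007. The other 31 members were mostly spread over the late libraries, though some of them were also high in S29, S31 or S39. By group mean, 35 members peaked at 1759, 1 at 1881, 14 at 2007 and 7 at 2139, and all 26 members of the first pattern were among those at 1759. This division was made after the values were seen, so it describes the libraries and carries no test.

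**Figure D1:**
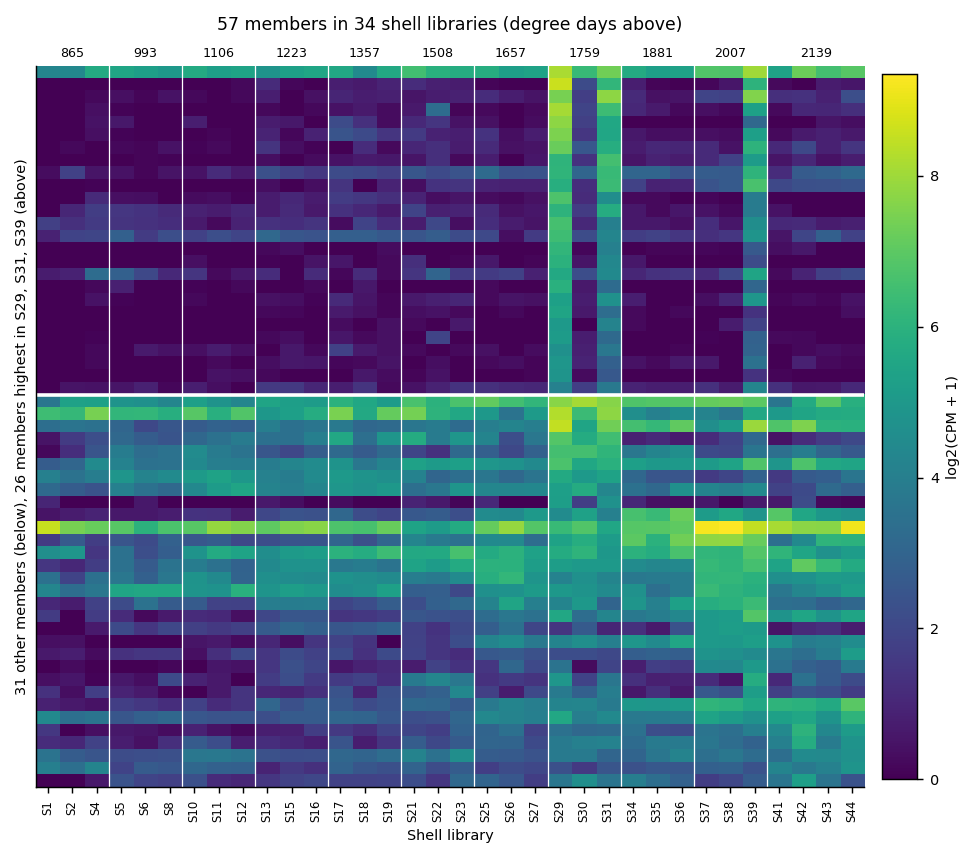
Level of each of the 57 members (rows) in the 34 shell libraries (columns, grouped by the degree days printed above) as log2(CPM + 1). The 26 rows above the horizontal white line are bright in S29, S31 and S39 and mostly dark elsewhere. The 31 rows below it are mostly spread over the libraries from 1657 onwards or brighter throughout, and some are also bright in S29, S31 or S39.

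The 26 members were grouped by their high level in S29, S31 and S39, so their sum there only describes that choice. The 26 members together held 2692 CPM in S29, 1193 in S31 and 1077 in S39. They held 22.3 to 177 CPM in each of the other 31 shell libraries. These include S30 with 124 at 1759 and S37 and S38 with 134 and 132 at 2007. Libraries S29, S31 and S39 also stood apart in genes that were chosen without shell values. A set of 249 genes enriched in kernel (at least 10 CPM over the kernel groups and more than 20 times every hull mean, a list drawn up after the values were seen) summed to 23939 CPM in S29, 8122 in S31 and 6819 in S39. In the other 31 shell libraries the same genes summed to 581 to 2645 CPM, in hull to 258 to 1331 and in kernel to 112087 to 493968. Of the 249, S29 had a count for 246, S31 for 240 and S39 for 230, against 154 to 235 in the other shell libraries.

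None of the 249 kernel-enriched genes is a member, since the rule removes genes that are high in kernel. Among all genes, 135 had the same 3 highest shell libraries with a mean of at least 10 CPM over them. Of these, 101 had a higher group mean in kernel than in hull at their maxima, 69 were kernel-enriched, and 81 had a kernel maximum above their mean over S29, S31 and S39. The 26 members are those that the rule left. All 26 were higher in S29 and in S31 than in every kernel and hull library used, which the choice of members largely fixes. S39 was above every kernel library for 22 of the 26 and above every hull library for 24. The part of kernel RNA in the level of the members was not tested. Without S29, S31 and S39, a change made after seeing the data, 30 genes met the rule and 25 of them are among the 57. Only 1 of the 26 members of the first pattern remained and 24 of the other 31.

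**Figure D2:**
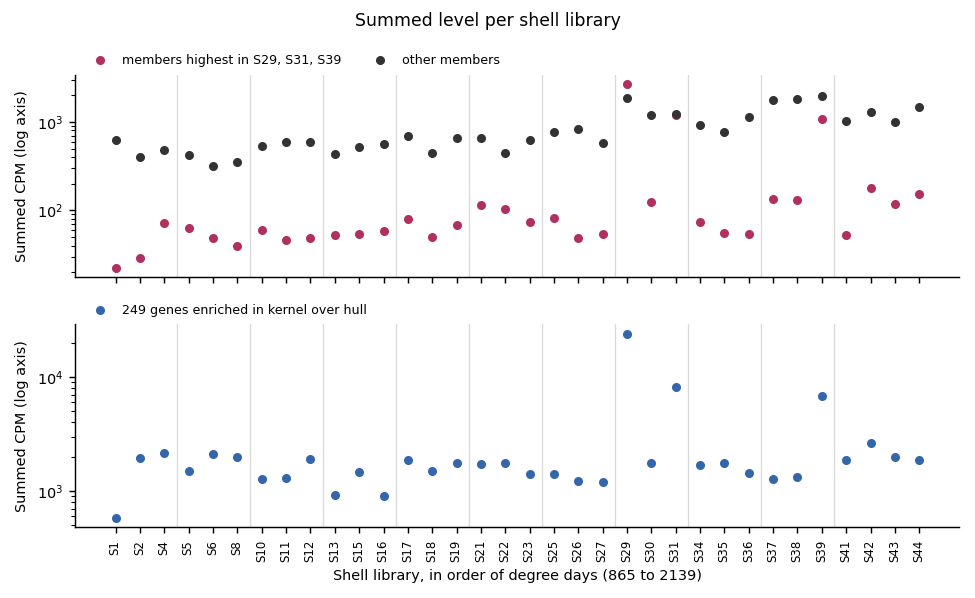
Summed CPM per shell library in order of degree days, on log axes, for the 26 members highest in S29, S31 and S39 and the 31 other members (upper panel) and for the 249 genes enriched in kernel over hull (lower panel). S29, S31 and S39 stand above all other shell libraries for the 26 members and for the kernel-enriched genes, and the 31 other members reach 1953 CPM in S39.

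Within the first pattern, the members were almost silent between their peaks. Of the 26, 25 stayed below 10 CPM in every one of the other 31 shell libraries, and 21 had a median there below 1 CPM. S29 exceeded S31 for 22 of them. Over all 26, the ratio of S29 to S31 had a median of 3.31 and ran from 0.701 to 7.06. Their highest shell means ran from 10.4 to 174 CPM with a median of 37.04.

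PvKer.04.g107440, the member with the highest level in S29, shows the pattern and PvKer.10.g239930 is its exception, both picked after their values were seen. At 1759 PvKer.04.g107440 held 384 CPM in S29, 3.35 in S30 and 69.8 in S31, and at 2007 it held 0.128 in S37, 0.467 in S38 and 65.7 in S39. The replicates of 1 group thus differed by more than 100 times, and the group mean of 152 ± 203 CPM (SD, n = 3) describes none of them. PvKer.10.g239930 held 287, 77.9 and 158 CPM at 1759 and 257 CPM in S39, but also had a median of 44.6 CPM over the other 31 shell libraries. It is the member of this pattern that still met the rule without the 3 libraries, with a highest mean of 109 CPM at 2007.

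An uneven spread between replicates was also seen, at a lower level, in some groups of hull and kernel, listed here after their values were seen. The 26 members summed to 106 and 21.6 CPM in the hull libraries at 1223, and to 28.4, 88.9 and 16.1 CPM in those at 1106. In kernel they summed to 20.1, 30.3 and 128 CPM at 1223, to 40.7, 130 and 18.5 CPM at 2139 and to 31.3, 28.9 and 97.9 CPM at 2284. In each of these groups 1 library stood at 88.9 CPM or above and the others at 40.7 CPM or below, against medians over all libraries of 12.6 CPM in hull and 21.9 CPM in kernel. The kernel library with 130 CPM was the shallowest used, at 850623 counts, of which 111 were on these members. Other groups were tight, for example hull at 1759 with 10.1 ± 1.38 CPM (SD, n = 4) and kernel at 1508 with 16.2 ± 1.22 CPM (n = 3).

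The hull mean of these 26 members was highest at 1223 for 13, and the kernel mean was highest at 2139 for 10 and at 1223 for 8. Their next-highest tissue after shell was kernel for 15 and hull for 11. For the other 31 members it was kernel for 4 and hull for 27.

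Summed, the other 31 members gave a seasonal course in shell, but not every member shared it. Some were also uneven between replicates in S29, S31 or S39, as these examples picked after their values were seen show. PvKer.06.g145560 held 36.5, 2.34 and 25.6 CPM in S29, S30 and S31. PvKer.08.g201390 held 1.22, 0.467 and 54.3 CPM in S37, S38 and S39. The summed level of the 31 members was 506 ± 115 CPM (SD, n = 3) at 865 and 729 ± 135 CPM (n = 3) at 1657. It was 1428 ± 359 CPM (n = 3) at 1759, 951 ± 189 (n = 3) at 1881, 1837 ± 105 (n = 3) at 2007 and 1203 ± 235 (n = 4) at 2139. PvKer.02.g036130 alone held 536 CPM of the sum at 2007 and 78.8 CPM of that at 1759. The higher sum at 2007 than at 1759 therefore rests on this gene. The rule put the peak late, so these levels are a description. Level at the 4 late points was not monotonic: the 3 libraries at 2007 held 1747, 1811 and 1953 CPM, all above the 774 to 1150 CPM of the 3 libraries at 1881. In all hull libraries these members summed to 79.0 to 189 CPM and in all kernel libraries to 11.6 to 85.8 CPM.

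**Figure D3:**
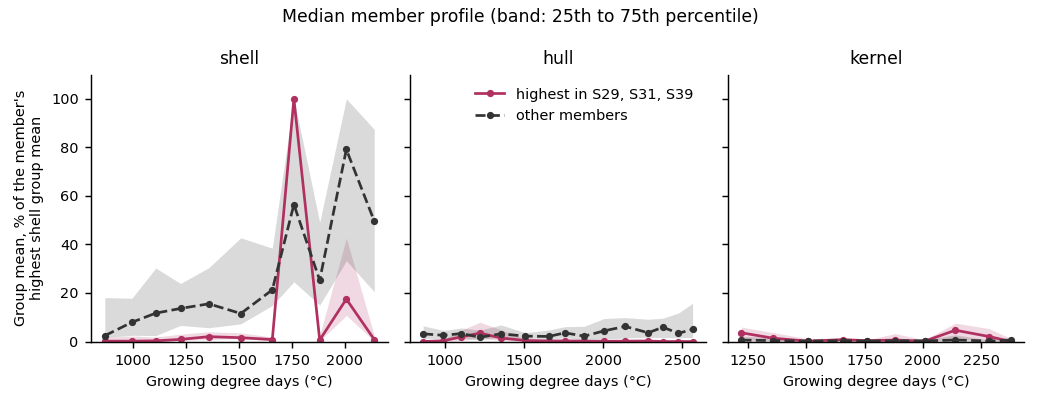
Group means of each member as a percentage of its own highest shell mean, by tissue and degree days, with the median over members as a line and the 25th to 75th percentile as a band. The median of the 26 members is 100% at 1759, 17.5% at 2007 and at most 2.01% at the other shell points, and that of the 31 others is 21.3% at 1657, 56.4% at 1759, 25.3% at 1881 and 79.1% at 2007.

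These 31 members reached their peaks at different rates. The highest shell mean divided by 2 was first passed at 1759 by 8 of them and at 2007 by 7, but 13 had passed it by 1657, of which 2 at 865. For 7 of the 31, every library of the peak group was above all other shell libraries. The rule placed the peak on these same values and the share over all genes was not computed, so this count is only a description. Their highest shell means ran from 15.0 to 536 CPM with a median of 60.4.

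Among the members that peak at a given point, the one with the highest shell mean there came from this second pattern at each of the 4 points. Of those that peak at 1759 it was PvKer.03.g089640, with 205, 271 and 201 CPM in S29, S30 and S31 (mean 225 ± 39.2, SD, n = 3). It was 98.2 ± 33.6 CPM (n = 3) at 1657 and 113 ± 3.68 CPM (n = 3) at 1881. Every library at 1759 was above every other shell library, and S30, far below S29 and S31 for the 26 members, was the highest. Its highest hull mean was 48.2 CPM, at 1357, and its highest kernel mean 5.45 CPM, at 1223.

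The only member that peaks at 1881 was PvKer.04.g101190, with 99.1, 80.2 and 148 CPM (109 ± 35.3, SD, n = 3). It was at most 7.73 CPM in every shell library up to 1508, and at most 4.36 CPM in every hull library and 0.711 CPM in every kernel library. The groups at 1881 and 2139 overlapped, because 1 library at 2139 held 117 CPM and the other 3 held 44.9, 30.01 and 25.4.

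Of those that peak at 2007 it was PvKer.02.g036130, the member with the highest shell mean of all, with 600, 652 and 356 CPM (536 ± 158, SD, n = 3). This gene alone made up 23.5% of the summed level of the 57 members at that point. It was far from silent before: it held 378, 173 and 145 CPM at 865, and its lowest group was 1508, with 42.3, 34.3 and 51.5 CPM. One library at 2139 reached 561 CPM and lay within the range at 2007. Its means at 1881 and 2139, 122 and 314 CPM, were also above those of the members that peak there.

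Of those that peak at 2139 it was PvKer.15.g367090, with 66.5, 61.3, 50.5 and 124 CPM (75.5 ± 32.9, SD, n = 4). Its libraries at 2007, with 68.9, 63.6 and 46.7 CPM, overlapped those. It was at most 2.47 CPM in the 9 libraries from 865 to 1106, and its hull mean, also highest at 2139, was 15.4 CPM there.

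**Figure D4:**
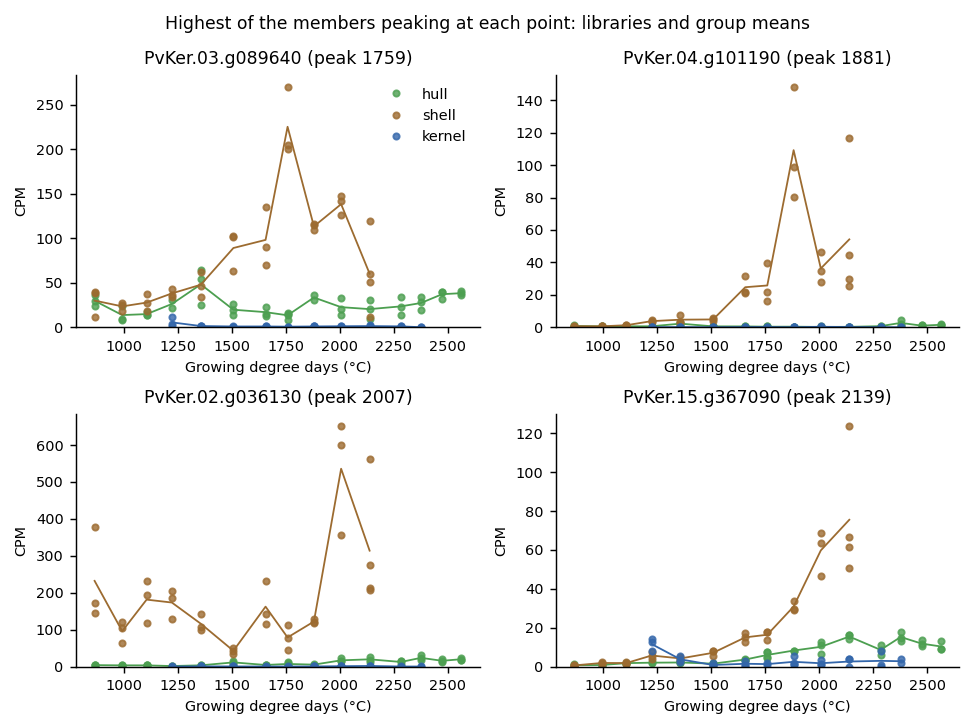
CPM of the member with the highest shell mean among those that peak at each of the 4 late points, against growing degree days, with points for libraries and lines for group means in hull, shell and kernel. PvKer.03.g089640 is highest at 1759 and still at 138 CPM at 2007, PvKer.04.g101190 is highest at 1881 with 1 library of 117 CPM at 2139, PvKer.02.g036130 is already at 145 to 378 CPM at 865, and PvKer.15.g367090 climbs to 124 CPM in 1 library at 2139.

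The members lay on all 15 chromosome numbers that the identifiers carry, with 10 on number 1, 8 on number 4 and 7 on number 3. In the order of the table, PvKer.01.g011280 and PvKer.01.g011290 were next to each other and PvKer.10.g239930 and PvKer.10.g239950 were 2 rows apart. The members of the first pair did not share a course: at 2139 PvKer.01.g011280 held 26.9 to 44.4 CPM and PvKer.01.g011290 at most 0.275 CPM. Whether reads shared by near-identical neighbours were split between them is not given in the sources used here.

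At the edges of the rule, PvKer.04.g106040 entered with a highest shell mean of 10.4 CPM and PvKer.14.g345270 stayed out with 9.23 CPM. PvKer.08.g209220 entered at 3.03 times its highest mean in another tissue, and PvKer.09.g222980 stayed out at 2.95 times. The same rule found 67 shell genes with their peak from 1223 to 1657 and 363 with their peak from 865 to 1106.

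Comparisons were then made where the rule does not set the direction, away from the late shell points. The rule still caps the values: hull and kernel means had to stay under the shell peak divided by 3, so the members are not a neutral sample. Each comparison averaged the log levels of the sampling points on each side, and calls required a log2 fold change of 1 or more in either direction with an adjusted p below 0.05 (edgeR quasi-likelihood test, Benjamini-Hochberg adjustment over all genes tested). Where a sampling point holds no count for a gene, this average can keep the gene from being called and the fitted fold change depends on a prior count and is no bound. The number of uncalled members with such a point is given with each comparison.

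Early in the season, from 865 to 1106, shell was compared with hull. Of the 57 members, 15 were higher in shell and 4 lower, against 14% and 13.9% of the 20649 genes tested. Of the 31 members of the second pattern, 14 were higher and 2 lower. Of the 26 of the first, 1 was higher and 2 lower. The median fitted log2 fold change was 0.15 over the 57 and 0.00 over all genes, and 17 uncalled members had a point with no count. With 1 mean per side, an alternative added after seeing the data that is free of this limit, 17 were higher and 10 lower, of which 8 were in the first pattern. Of all 20649 genes, 2842 were higher and 2799 lower under that setting. Without replicate 2 of every group 2 members were lower, against 2374 of 21137 genes.

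PvKer.02.g036130 had the largest early excess in shell. It held 63.5 to 378 CPM (median 145, n = 9) in shell and 2.04 to 4.38 CPM (median 3.22, n = 9) in hull. No library overlapped, and the log2 fold change was 5.49 ± 0.27 (SE; edgeR adjusted p = 1.65e-30). The largest deficit among the called members was that of PvKer.09.g221920, at 0.129 ± 0.180 CPM (SD, n = 9) in shell and 0.448 ± 0.293 CPM (n = 9) in hull. The groups overlapped at levels of a few reads, with a log2 fold change of -2.11 ± 0.69 (SE; edgeR adjusted p = 0.00763). The call was lost without replicate 1 of every group (edgeR adjusted p = 0.204).

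From 1223 to 1657, still before the peaks, the excess in shell was wider. Of the 57 members 27 were higher in shell than in hull and 1 lower, against 8.51% and 4.63% of 20649 genes. The second pattern held 26 of the 27, out of its 31 members. The median log2 fold change was 1.17 over the 57 and 0.06 over all genes, and 9 uncalled members, all of the first pattern, had a point with no count. Library size alone moved the median of all genes by 0.14 and left 27 members higher, against 2181 of 20649 genes.

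PvKer.13.g311410 showed the largest excess, with 0 to 22.6 CPM (median 2.14, n = 12) in shell and 0 to 0.336 CPM (median 0, n = 11) in hull. Its shell level at 1657 was 17.8, 22.6 and 12.6 CPM, and S15 at 1223 and S19 at 1357, with 0.261 and 0 CPM, were the shell libraries within the range of hull. The fitted log2 fold change was 5.71 ± 0.60 (SE; edgeR adjusted p = 5.39e-11), with hull points that held no count. The 1 member lower in shell was PvKer.06.g155480, of the first pattern, at 4.45 ± 2.06 CPM (SD, n = 12) against 7.47 ± 2.59 CPM (n = 11) in hull. Its log2 fold change was -1.02 ± 0.39 (SE; edgeR adjusted p = 0.0273), and the call was lost without replicate 2, 3 or 4 of every group, with adjusted p from 0.0488 to 0.152 and a change just under the minimum.

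Within shell, the points 1508 and 1657 were set against 865 to 1106 to see how many members had moved before their peak. Of the 57, 27 were higher and 4 lower, against 14.6% and 17.1% of the 18762 genes tested. The first pattern gave 7 higher and 0 lower of 26, and the second 20 higher and 4 lower of 31. The median log2 fold change was 1.75 over the 57 and -0.02 over all genes, and 11 uncalled members had a point with no count. Without S29, S31 and S39, which lie outside the points compared but enter the fit, 30 were higher and 3 lower. Of 19828 genes, 2927 were higher and 3328 lower under that setting.

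The largest rise was again PvKer.13.g311410, from at most 0.559 CPM (median 0.218, n = 9) to 1.70 to 22.6 CPM (median 8.16, n = 6). The libraries of the 2 sides did not overlap, and the fitted log2 fold change was 6.08 ± 0.55 (SE; edgeR adjusted p = 3.74e-10), with no count at 993. Among the called members PvKer.05.g130580 fell the most, from 32.3 ± 17.6 CPM (SD, n = 9) to 16.6 ± 13.02 CPM (n = 6), before its own late peak. Its libraries overlapped, with a log2 fold change of -1.36 ± 0.26 (SE; edgeR adjusted p = 5.1e-05). The count of members that fell was 2 without replicate 2 or 3 of every group, and also with RLE factors, with library size alone or with DESeq2. Over all genes, the count that fell ran from 2664 to 3088 under these settings.

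The hull was followed over the same season. From 865 to 1106 to the late points 1759 to 2139, 5 members rose and 12 fell, against 6.97% and 15.9% of 18924 genes. Only 48 of the 57 passed the filter on low counts in hull, 17 of the first pattern and 31 of the second. In the first pattern 0 rose and 6 fell, and in the second 5 rose and 6 fell. The median log2 fold change of the 48 was 0.00 and that of all genes 0.01, with 8 uncalled members that had a point with no count. With 1 mean per side 7 rose and 18 fell, of which 12 in the first pattern, against 1393 and 2939 of 18924 genes. With the 14 left-out libraries included 11 members rose, against 1358 of 19046 genes.

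In hull PvKer.15.g372130 rose the most, from at most 0.601 CPM (median 0.0582, n = 9) to 0 to 8.07 CPM (median 2.21, n = 12). Some late libraries were still at 0, and the log2 fold change was 3.66 ± 0.61 (SE; edgeR adjusted p = 3.23e-06). PvKer.04.g099100 fell the most, from 0.543 ± 0.923 CPM (SD, n = 9) to 0.0265 ± 0.0917 CPM (n = 12), which is close to no reads on both sides. The fitted log2 fold change was -4.00 ± 1.43 (SE; edgeR adjusted p = 0.0178), and the call was lost without replicate 2 of every group and with the other tissues in the fit.

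After shell sampling had ended, hull continued to 2564. Between 1759 to 2139 and 2284 to 2564, 9 members were higher at the end and 11 lower of the 48 that passed the filter, against 8.64% and 9.99% of 18924 genes. All 9 that rose belonged to the second pattern, and the first gave 5 that fell. The median log2 fold change was -0.39 for the 48 and -0.04 for all genes, and 9 uncalled members had a point with no count. The count that fell was 6 without replicate 3 of every group, against 1535 of 19391 genes. With the 14 left-out libraries included 3 members rose, against 1507 of 19046 genes.

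PvKer.13.g311410 rose the most in late hull, to 0 to 2.68 CPM (median 0.505, n = 12) from at most 0.0898 CPM (median 0, n = 12). Its hull level at 2564 was 1.21, 0.889 and 2.68 CPM, against 14.2 to 26.16 CPM in the last shell group, at 2139. The fitted log2 fold change was 5.13 ± 0.91 (SE; edgeR adjusted p = 3.65e-05), and the call was lost without replicate 2 of every group and with the 14 left-out libraries included. PvKer.10.g251860 fell the most, from 0.845 ± 0.664 CPM (SD, n = 12) to 0.160 ± 0.367 CPM (n = 12). The 2 sides overlapped, and the fitted log2 fold change was -3.49 ± 0.72 (SE; edgeR adjusted p = 9.54e-05).

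The kernel was compared between 1223 to 1657 and 1759 to 2139, and 37 of the 57 members passed the filter on low counts. Of the 37, 4 rose and 3 fell, against 10.4% and 12.7% of 17248 genes. With so few members tested, these counts do not set the members apart from all genes. Of these 37, 19 were of the first pattern (3 rose, 2 fell) and 18 of the second (1 rose, 1 fell). The median log2 fold change was -0.16 for the 37 and -0.01 for all genes, with 11 uncalled members that had a point with no count. The count that fell was 1 without replicate 2 of every group, against 1773 of 17861 genes. With the 14 left-out libraries included 10 members rose, but the count over all genes also grew, from 1802 of 17248 to 2523 of 17566.

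PvKer.03.g092230 rose the most in kernel, from 0.104 ± 0.145 CPM (SD, n = 12) to 0.624 ± 0.574 CPM (n = 12), with overlapping sides. The fitted log2 fold change was 3.13 ± 0.85 (SE; edgeR adjusted p = 0.00337), and the call was lost without replicate 1 or 2 of every group. PvKer.11.g272130 fell the most, from a median of 0.517 CPM (0 to 12.4, n = 12) to a median of 0 (0 to 0.370, n = 12). Its high libraries were the 3 at 1223, with 6.44, 12.4 and 3.81 CPM. The fitted log2 fold change was -4.97 ± 1.00 (SE; edgeR adjusted p = 0.000201), and the call was lost without replicate 2 of every group and with the 14 left-out libraries included.

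At the late points, kernel and hull were compared to see which of the tissues outside the shell held more of the members' low remaining level. Of the 57, 9 were higher in kernel and 22 lower, against 22.9% and 27.7% of 20649 genes. The first pattern gave 8 higher and 3 lower, and the second 1 higher and 19 lower. The median log2 fold change was -0.66 over the 57 and -0.16 over all genes, and 16 uncalled members had a point with no count. With 1 mean per side 15 were higher, 14 of them in the first pattern, and 22 lower, against 5332 and 5644 of 20649 genes. Library size alone moved the median of all genes by -0.74 and gave 7 members higher and 28 lower, against 2830 and 9108 genes. Whether the patterns differ was not tested, because the division was made after values were seen.

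PvKer.08.g199820, of the first pattern, had the largest kernel excess, with 0.223 to 2.62 CPM (median 0.750, n = 12) in kernel and at most 0.0923 CPM (median 0, n = 12) in hull. No library overlapped, and the fitted log2 fold change was 6.49 ± 1.04 (SE; edgeR adjusted p = 2.33e-07). PvKer.11.g272130 had the largest hull excess, with 0.953 to 9.34 CPM (median 2.59, n = 12) in hull and at most 0.370 CPM (median 0, n = 12) in kernel. Its sides did not overlap either, with a fitted log2 fold change of -7.04 ± 0.68 (SE; edgeR adjusted p = 1.53e-15).

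**Figure D5:**
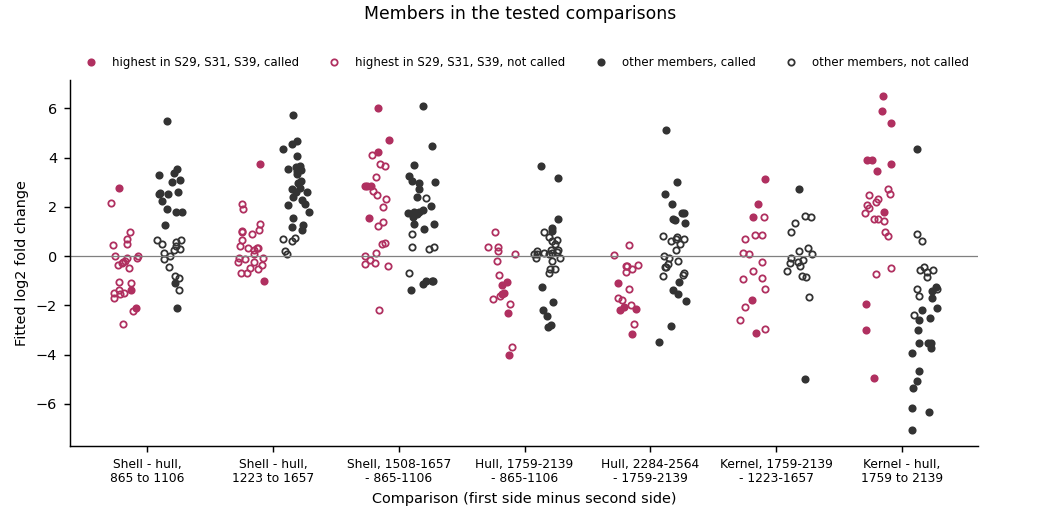
Fitted log2 fold changes of the members in the 7 comparisons, first side minus second side, with filled points for called members. The 31 other members lie mostly above 0 for shell against hull at 1223 to 1657 (26 called higher, against 8.51% of all genes). They lie mostly below 0 for kernel against hull (19 called lower, against 27.7%). The 26 members highest in S29, S31 and S39 lie mostly above 0 for kernel against hull (8 called higher, against 22.9%). Of these 26, 15 were not called there, and 12 of the 15 had a point with no count.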

How the data were processed

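The authors deposited 1 table of read counts per gene, not normalized, with a column per library. Per the labels' protocols, libraries were made from total RNA with a TruSeq kit and read as pairs of 150 bp, and the submitters' processing notes name Trimmomatic 0.39 and Bowtie2 2.3.4.1. For the counting tool, strand setting, genome build and annotation, the sources used here give nothing. Of 38315 identifiers, 1252 named after contigs were left out. The members and the patterns were chosen with earlier results of these data known. Left out by the rule were H15, H33, H34, S14, K6, K7, K8, K23, K32, K38.2, K44, K45, K47 and K48.

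CPM were computed over the remaining 37063 identifiers (pandas 2.3.3, Python 3.11.15). Counts were tested in R 4.3.3 with edgeR 4.0.16 (TMM factors, filterByExpr by group, 1 mean per tissue and sampling point, glmQLFit and glmQLFTest), with standard errors from the size of the log2 fold change over the root of F. Comparisons between tissues used a single fit to the 107 libraries, and those within a tissue only its own. Adjustment was over all genes tested. Tested on simulated counts, each comparison recovered 100% of 200 genes changed 4-fold, with 0 to 3 other calls. The simulation gave all genes the same spread between replicates and changed only genes above a minimum level. It therefore does not show how often a change would be called in members at a few reads or with uneven replicates. No 2 of the shell libraries used agreed within sampling noise: the lowest chi-square per degree of freedom was 7.07. Hull, kernel and left-out libraries were not compared in this way. Named members were, for each late point, the one with the highest shell mean among those that peak there, the called member with the largest rise and fall in each comparison, and the genes at the edges of the rule. DESeq2 1.42.0 was an alternative. Batches of sequencing or extraction are not in the labels, so within-batch values could not be given.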

Additional observations from a re-analysis of the deposited data

Results flagged for a closer look

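Summed levels of the members were checked for single libraries far from the rest of their group, with the left-out libraries included under their labels. Of 16 tests in groups of 4 libraries, 4 marked a library. By chance such a test marks about 1 in 20. Several groups reached 4 only with a left-out library, so the number marked cannot be set against that rate. K27 (kernel, 1881) held 42.04 CPM of the 26 members highest in S29, S31 and S39, against 18.1 to 20.4 CPM in the other 3. S14 (shell, 1223), left out by the rule, held 19.7 CPM of them against 53.0 to 58.6 CPM. Of the 31 other members, K32 (kernel, 2139) held 397 CPM against 38.5 to 85.8 CPM. K38.2 (kernel, 2284) held 316 CPM of them, from 64 counts of 202455, against 11.9 to 30.8 CPM. Both are left out by the rule.

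Several of the left-out libraries held more of the members than the libraries used at their labelled point. Their identity was not tested here. Of the 31 other members, H33 and H34 (hull, 1881) held 708 and 931 CPM, against 89.8 to 114 CPM in the 2 hull libraries used there, and 60.0 and 81.3 CPM of the 26 members against 12.9 to 17.6 CPM. H15 (hull, 1357) held 398 CPM against 119 to 174 CPM, and 55.6 CPM of the 26 members against 34.8 to 43.3 CPM. K23 (kernel, 1759) held 471 CPM against 18.9 to 20.3 CPM, and 47.95 CPM of the 26 members against 20.6 to 22.5 CPM.

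Shallow late kernel libraries differed in the 26 members. K45, K47 and K48 (kernel, 2475) held 260, 407 and 322 CPM, against 8.65 to 130 CPM in the 29 kernel libraries used. These levels rest on 130, 124 and 171 counts of 500455, 304704 and 530385. The 31 other members gave 156, 161 and 143 CPM there, against 11.6 to 85.8 CPM. K38.2 (kernel, 2284) held 158 CPM of the 26 members, from 32 counts, against 28.9 to 97.9 CPM. K44 (kernel, 2377), with 631221 counts, held 4.75 CPM of them, from 3 counts, which is below every kernel library used. With the 14 left-out libraries in use as well, 47 genes met the rule. Of the 57 members 10 were lost, 6 through kernel at 2475, of which 5 were among the 26, and 4 through hull at 1881.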

How the results depend on the processing

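The number of genes that met the rule (57) was 96 at 2 times the other tissues, 30 without S29, S31 and S39, 42 without S29 alone, and 44 to 64 when replicate 1, 2, 3 or 4 of every group was left out. In the comparisons, counts that moved by more than 1.5 times were small ones. With the 14 left-out libraries included, members that rose numbered 11 in hull from early to late, 3 in hull after 2139 and 10 in kernel. With 1 mean per side, 10 were lower in shell at 865 to 1106, 0 at 1223 to 1657, 5 fell in kernel and 15 were higher in kernel than in hull. Over all genes, 997 of 20649 were lower at 1223 to 1657 and 2234 of 17248 fell in kernel under that setting. Library size alone gave 0 lower at 1223 to 1657, and library size alone, RLE factors and DESeq2 each gave 2 that fell within shell. Without a minimum fold change 14 members rose in hull after 2139, against 5192 of 18924 genes. Without a filter on low counts 5 members fell in kernel, against 2297 of 24475 genes.

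Leaving out each replicate in turn gave 2 to 5 members lower in shell at 865 to 1106, 0 to 1 at 1223 to 1657, 2 to 4 that fell within shell, 6 to 11 that fell in hull after 2139, and 1 to 3 that fell in kernel. Over all genes these counts ran, in the same order, from 2374 to 2880, 852 to 1036, 2664 to 3268, 1535 to 1884 and 1773 to 2219. Of 200 alternatives for the 14 named fold changes, 186 kept direction and call, 14 lost the call and 0 changed sign.

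Hull and shell libraries share title numbers, and a fit with these as a replicate block gave 16 members higher at 865 to 1106 and 27 at 1223 to 1657. Of 19931 genes, 2580 and 1615 were higher in that fit. Deviations of the 26 same-numbered pairs correlated from -0.37 to 0.34 (median 0.02), with 7 above 0.1, so the numbers were not taken to pair the samples. Hull and kernel levels of most members are a few reads, which limits their fold changes.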
